A study of Mus musculus with 12 samples.

Results

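Genes of the cell division cycle were followed across bone marrow-derived macrophages of 2 mouse genotypes, with and without the inflammatory cytokine TNF. The set holds 41 genes out of 24465 listed in either deposited table, given as a list of symbols, and all 41 were present in both tables. The rule uses no measured value, but the list was drawn up with earlier results of these data known. By role, 15 of them act at the G1-S transition or in DNA replication, 23 act in G2 and mitosis, and 3 are G1 regulators, namely the D-type cyclin genes Ccnd1 and Ccnd2 and the inhibitor gene Cdkn1a. The groups were Klf6fl/fl:Lyz2cre cells given 10 ng/ml TNF for 6 h, Lyz2cre cells given the same TNF, untreated Klf6fl/fl:Lyz2cre cells and untreated Lyz2cre cells, with 3 libraries in each of the 4 groups. Klf6fl/fl:Lyz2cre cells, called Klf6-deleted here, carry floxed copies of Klf6, a zinc-finger transcription factor gene, and the Cre recombinase under the lysozyme 2 gene, which is active in myeloid cells. Both genotypes carry that Cre and no group lacks it, so its own effect was not tested. Such macrophages are raised in a dish from progenitors of the marrow. The sources used here give no strain, sex or age, and do not say whether the libraries of a group come from separate animals or cultures. The p-values therefore cover only the spread between libraries, which may be technical. The series is about KLF6 of macrophages in a model of atherosclerosis, and its design sets the genotypes against each other at rest and under TNF.

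As background, entry into S phase depends on D-type cyclins, which with their kinases inactivate the retinoblastoma proteins and release E2F factors. E2F factors drive genes for origin licensing, nucleotide supply and replication, and a second wave led by B-MYB and FOXM1 drives genes for the mitotic cyclins, kinases, spindle and checkpoint. Cdkn1a encodes p21, which inhibits cyclin-dependent kinases, is a target of p53 and was reported as a target of KLF6 in human cells. Macrophages of this kind divide in culture in response to the growth factor CSF1, and inflammatory stimuli are known to stop that division.

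The libraries held 16.9 to 23.4 M reads. Values are normalized read counts (reads divided by a size factor set within each table), and CPM are reads scaled to each library's total, n = 3 libraries per group throughout, and changes are differences of log2(value + 1), which understate the change of genes with few reads. Klf6 itself averaged 4161 ± 43.4 in Klf6-deleted cells and 7447 ± 255 in Lyz2cre cells with TNF (SD, log2 change -0.84), and 7101 ± 269 in Klf6-deleted and 10118 ± 174 in Lyz2cre cells without TNF (log2 change -0.51). The counts are per gene and not per exon, so how complete the deletion was cannot be read from them. Of the macrophage markers, Csf1r, Adgre1 and Cd68 stood at 17596 or more in every library, and Itgam at 1219.9 or more. Mertk was lower, at 257 to 309.9 in Klf6-deleted and 189 to 205 in Lyz2cre libraries with TNF. Without TNF all 5 markers averaged less in Klf6-deleted than in Lyz2cre cells. The means were 44591 against 101069 for Csf1r, 34816 against 73807 for Adgre1 and 29780.5 against 32646 for Cd68. For Itgam they were 2902 against 5292 and for Mertk 1561 against 3317. By the chi-square of read counts per gene between libraries of a group, library 2 of Lyz2cre cells with TNF stood apart, at 8.66 and 6.49 from the other libraries of its group, where the remaining pairs of all groups gave 2.27 to 5.25. Without it 29 members were called higher and 5 lower with TNF, against 29 and 4 with it, since Tpx2 then passed as lower. For the difference of the genotype effects 11 members were larger and 12 smaller with TNF without it, against 15 and 11 with it. The calls of Birc5, Bub1, Cdc20, Cdt1 and Nusap1 were lost (limma, differences 0.81, 0.66, 0.50, 0.22 and 0.68), and those of Hmmr (1.55) and Tyms (-0.64) were gained. The T cell gene Cd3e and the erythroid gene Hbb-bs stayed near 0 (at most 6.67) in every library. Granulocyte and progenitor genes were present without TNF, with Mpo at 365 to 628, Elane at 246 to 373 and S100a8 at 1327 to 1968.5. With TNF Mpo stood at 2.80 or less, Elane at 2.98 to 12.6 and S100a8 at 55.4 to 89.7.

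The promoter windows show what the genes of each role share outside the measured values. RefSeq windows of GRCm38.p6, running from 250 bases before a gene's start to 50 after it, were given for 31 of the 41 members. The words TTTGAA and TTCGAA, the cell cycle homology region (CHR) to which MuvB complexes such as those with B-MYB are known to bind, were searched on both strands, as were the E2F words TTTCCCGC, TTTGGCGC, TTTCGCGC and TTTGCCGC. A CHR word stood in 15 of the 18 G2 and mitosis genes with a window (83.33%), in 2 of the 12 G1-S genes (16.67%), in 16.59% of the 9678 genes tested without TNF and in 21.66% of all 27025 genes with a window. An E2F word stood in 5 of the 12 G1-S genes (41.67%), in 1 of the 18 G2 and mitosis genes (5.556%, Cdk1), in 4.794% of the tested genes and in 2.605% of all genes. CCAAT, the NF-Y word, stood in 16 of the 18 mitotic and 8 of the 12 G1-S genes (42.89% of tested genes), and GGGCGG, the word bound by Sp and Krüppel-like factors, in 14 of the 18 mitotic and 10 of the 12 G1-S genes (68.53% of tested genes). A gene with several windows counted where any of them held the word, and a match is a description of letters, not a site. The G2 and mitosis genes without a CHR word were Birc5, Ccnb1 and Nusap1, and neither of the 2 windows of Cdkn1a held a CHR or an E2F word.

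**Figure D1:**
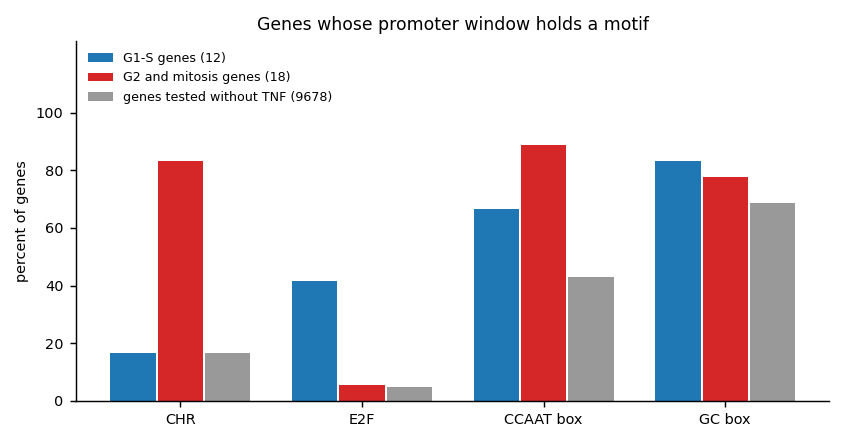
The bars give the percent of genes whose promoter window of 300 bases holds the motif on either strand, for G1-S members (12), G2 and mitosis members (18) and the 9678 genes tested without TNF. CHR words stand in 83.33% of G2 and mitosis members and 16.59% of tested genes, and E2F words in 41.67% of G1-S members and 4.794% of tested genes.

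Windows of 6 genes are printed 5′ to 3′ on the gene's own strand, with CHR words in capitals for the mitotic genes and E2F words in capitals for the helicase genes. Cdc20 and Ube2c carry a CHR word close before the start and Ccnb2 one just after it, and Mki67, a mitotic gene that did not pass the test between genotypes with TNF, has 2 CHR words.
Cdc20 (chr4:118437294-118437593, minus strand): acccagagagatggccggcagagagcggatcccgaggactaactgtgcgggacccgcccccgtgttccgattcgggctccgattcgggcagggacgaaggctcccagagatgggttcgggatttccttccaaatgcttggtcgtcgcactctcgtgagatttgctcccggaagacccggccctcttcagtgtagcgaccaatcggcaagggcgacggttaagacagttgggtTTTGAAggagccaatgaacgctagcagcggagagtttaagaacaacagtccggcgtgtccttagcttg
Ube2c (chr2:164769679-164769978, plus strand): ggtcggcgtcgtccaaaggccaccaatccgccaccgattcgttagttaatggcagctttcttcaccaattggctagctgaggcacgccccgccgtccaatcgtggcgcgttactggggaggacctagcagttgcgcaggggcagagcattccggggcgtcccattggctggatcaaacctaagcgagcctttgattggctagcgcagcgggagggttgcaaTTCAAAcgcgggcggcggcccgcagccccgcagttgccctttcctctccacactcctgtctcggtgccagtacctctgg
Ccnb2 (chr9:70421505-70421804, minus strand): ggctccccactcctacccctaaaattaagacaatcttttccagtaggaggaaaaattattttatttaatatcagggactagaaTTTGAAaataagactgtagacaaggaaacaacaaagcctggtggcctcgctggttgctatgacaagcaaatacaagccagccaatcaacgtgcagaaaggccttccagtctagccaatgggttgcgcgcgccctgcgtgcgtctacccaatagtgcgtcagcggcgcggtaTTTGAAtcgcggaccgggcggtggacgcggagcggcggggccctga
Mki67 (chr7:135716330-135716629, minus strand): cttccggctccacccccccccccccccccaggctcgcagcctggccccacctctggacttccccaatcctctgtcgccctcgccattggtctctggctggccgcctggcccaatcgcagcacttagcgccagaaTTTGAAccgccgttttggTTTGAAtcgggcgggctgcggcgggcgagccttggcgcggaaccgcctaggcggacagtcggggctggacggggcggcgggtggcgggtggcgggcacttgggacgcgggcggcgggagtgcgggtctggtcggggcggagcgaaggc
The helicase genes Mcm5 and Mcm6 hold overlapping E2F words read on both strands, and Mcm6 a further one nearer the start.
Mcm5 (chr8:75109259-75109558, plus strand): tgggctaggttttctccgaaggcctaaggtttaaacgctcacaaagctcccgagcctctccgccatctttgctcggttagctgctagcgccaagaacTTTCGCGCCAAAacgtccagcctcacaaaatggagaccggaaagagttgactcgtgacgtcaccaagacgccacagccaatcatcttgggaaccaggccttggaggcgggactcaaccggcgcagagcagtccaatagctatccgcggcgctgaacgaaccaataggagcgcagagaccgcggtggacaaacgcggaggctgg
Mcm6 (chr1:128359656-128359955, minus strand): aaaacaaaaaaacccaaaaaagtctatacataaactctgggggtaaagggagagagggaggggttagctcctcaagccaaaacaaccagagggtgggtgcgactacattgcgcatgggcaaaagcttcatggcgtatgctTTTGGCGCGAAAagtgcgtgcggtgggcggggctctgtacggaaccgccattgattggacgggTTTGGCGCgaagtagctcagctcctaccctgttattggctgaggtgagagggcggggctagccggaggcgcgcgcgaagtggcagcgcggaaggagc
The CHR word began 18 bases before the start in Cdc20 and 29 in Ube2c, where it is read on the other strand. In Ccnb2 one began 167 bases before the start and one at base 4 after it, and in Mki67 they began 116 and 98 bases before it. The E2F words began 153 and 149 bases before the start in Mcm5, and 110, 106 and 47 in Mcm6.

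Without TNF, replication and mitosis genes were both higher in Klf6-deleted cells than in Lyz2cre cells. Of the 41 members 39 rose past limma's adjusted p of 0.05, a call made in the same direction for 27.6% of the 12715 genes tested, and 1 fell, against 29.3% of genes. In bulk RNA a larger share of dividing cells and more of each transcript per dividing cell cannot be told apart. Of the 15 G1-S genes 13 rose, with a median log2 change over the 15 of 0.86. All 23 G2 and mitosis genes rose, with a median of 1.31 and a range of 0.87 (Aurka) to 1.84 (Bub1), where the median of all genes tested was -0.01. A rise of at least 2-fold past the test was made by 20 of the 23 mitotic genes and 5 of the 15 G1-S genes, against 11.1% of all genes.

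Markers of some other cells moved with the genotype as well. Over all genes tested 27.6% rose and 29.3% fell without TNF, and 26.5% rose and 30.8% fell with it. All 17 tested stromal markers of 20 rose without TNF, and the list took 0.421 to 0.448% of the summed values in Klf6-deleted libraries against 0.0240 to 0.0284% in Lyz2cre libraries, led by Col1a1 (16106 ± 673 in Klf6-deleted cells against 571 ± 41.7 in Lyz2cre cells). With TNF 12 of 14 tested rose, at 0.0412 to 0.0485% of values in Klf6-deleted against 0.00841 to 0.0105% in Lyz2cre libraries. Without TNF 7 of the 8 tested monocyte and dendritic cell markers of 13 rose, 6 of the 7 tested endothelial markers of 11 rose, and 15 of the 18 macrophage markers fell (1.88 to 2.01% of values in Klf6-deleted against 2.70 to 2.74% in Lyz2cre libraries). Granulocyte and progenitor markers were split, with 5 rising and 6 falling of 13 tested. With TNF 12 of the 18 macrophage markers fell and 5 rose. Of the tested markers 2 of 8 monocyte, 1 of 5 endothelial and 1 of 5 granulocyte and progenitor genes rose, while 2, 3 and 2 of them fell. The rises of these last lists with TNF were near the share over all genes. Of the lymphoid, erythroid and megakaryocyte list 3 of 15 genes passed the filter and rose in each comparison, at 0.00335% of values or less in Klf6-deleted libraries. With TNF all 3 lay below 1 CPM in at least 1 Lyz2cre library and so passed the filter only with the Klf6-deleted group. The same held for 3 of the risen stromal genes in each comparison. Without TNF it held for 2 of the risen endothelial and 2 of the risen granulocyte and progenitor genes. The filter favours a rise of such genes. The part of any of these cells in the results on cell cycle genes was not tested.

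Among the untreated G1-S genes, Rrm2, the regulated subunit of ribonucleotide reductase, had 680.2, 669.9 and 635 normalized counts in Klf6-deleted cells, against 264, 249 and 195 in Lyz2cre cells (log2 change 1.50, SE 0.0988, adjusted p = 3.10e-10). The replication clamp gene Pcna had 9864, 10498 and 8996 normalized counts in Klf6-deleted cells, against 4673, 5225 and 4632 in Lyz2cre cells (log2 change 1.01, SE 0.0523, adjusted p = 9.76e-12). Every Klf6-deleted library lay above every Lyz2cre library for both genes. The replicative helicase genes Mcm2 to Mcm7 all rose, by 0.59 (Mcm4) to 1.10 (Mcm5) on the log2 scale. Mcm6 had 2277, 2131 and 1969 normalized counts in Klf6-deleted cells, against 1239.7, 1281 and 1199 in Lyz2cre cells (log2 change 0.78, SE 0.0531, adjusted p = 5.19e-10). Cdt1, which loads that helicase at origins, had 1635, 1580.1 and 1521 normalized counts in Klf6-deleted cells, against 908, 857 and 840.0 in Lyz2cre cells (log2 change 0.86, SE 0.0517, adjusted p = 8.07e-11), again with no overlap. Its inhibitor gene Gmnn (geminin) did not pass the test (log2 change 0.12, SE 0.0974, adjusted p = 0.292), and did when scaled to total reads (log2 change 0.26, limma, adjusted p = 0.033). The S-phase cyclin genes Ccne1 and Ccne2 rose by 1.27 and 0.76, Rrm1 by 0.64, and Tyms, which makes thymidylate, by 1.05. E2f1 was the exception in direction. This gene for the factor that drives the others had 655, 683 and 624 normalized counts in Klf6-deleted cells, against 745, 731 and 719.7 in Lyz2cre cells (log2 change -0.16, SE 0.0603, adjusted p = 0.028). Its 3 Klf6-deleted libraries lay just below the Lyz2cre ones, and the call was lost in DESeq2 (adjusted p = 0.091). In limma it was lost with scaling to total reads (log2 change -0.030, adjusted p = 0.685) and in the fit over all 4 groups (adjusted p = 0.138). It was also lost without any of Klf6-deleted libraries 1 and 3 or Lyz2cre libraries 1 and 2 (limma, adjusted p up to 0.118).

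Among untreated G2 and mitosis genes, Bub1, a kinase of the spindle checkpoint, had 191, 195 and 179 normalized counts in Klf6-deleted cells, against 46.0, 65.4 and 45.9 in Lyz2cre cells (log2 change 1.84, SE 0.167, adjusted p = 2.36e-08). Top2a, the topoisomerase that untangles chromosomes, had 1521, 1510.3 and 1427 normalized counts in Klf6-deleted cells, against 607, 627 and 567 in Lyz2cre cells (log2 change 1.31, SE 0.0564, adjusted p = 8.14e-13). Neither gene's groups overlapped. Tpx2, a spindle assembly factor that activates Aurora A, had 563, 530.4 and 517 normalized counts in Klf6-deleted cells, against 167, 156 and 175 in Lyz2cre cells (log2 change 1.69, SE 0.0888, adjusted p = 1.30e-11). Mki67, whose protein Ki-67 coats mitotic chromosomes and is the usual marker of proliferation, had 1635, 1306 and 1386 normalized counts in Klf6-deleted cells, against 700.3, 529 and 680.3 in Lyz2cre cells (log2 change 1.18, SE 0.0922, adjusted p = 3.12e-09). In both genes the Klf6-deleted libraries lay far above the Lyz2cre ones. Of the mitotic cyclin genes and their kinase, Ccna2 rose by 1.61, Ccnb1 by 1.57, Ccnb2 by 1.12 and Cdk1 by 1.02. Foxm1, the factor for many genes of this phase, rose by 1.24, and the mitotic kinase genes Plk1, Aurkb and Aurka by 1.50, 0.97 and 0.87. Cdc20 and Ube2c, the activator and the conjugating enzyme of the anaphase-promoting complex, rose by 1.42 and 1.45. Birc5 and Cdca8, partners of Aurora B in the chromosomal passenger complex, rose by 1.46 and 1.01, the checkpoint gene Bub1b by 0.99, and Cdca3, which promotes mitotic entry, by 1.31. The spindle motor and microtubule genes Kif11, Kif20a, Prc1, Nusap1 and Hmmr rose by 1.04, 1.66, 1.60, 1.16 and 1.73. In all 23 genes each Klf6-deleted library lay above each Lyz2cre library, as in 30.1% of genes tested.

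**Figure D2:**
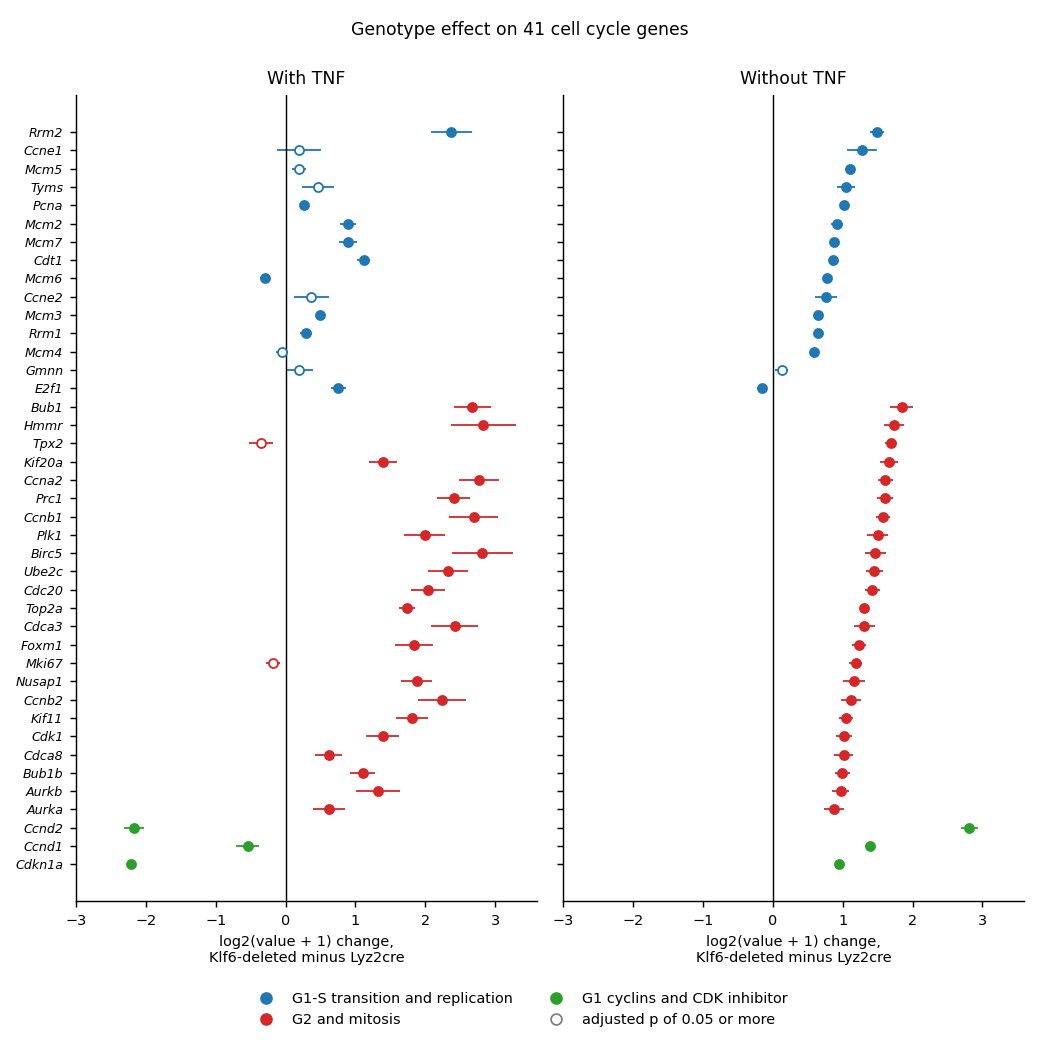
Each point is the log2(value + 1) change of 1 member, Klf6-deleted minus Lyz2cre, with its SE from limma, with TNF (left) and without it (right), n = 3 libraries per group, ordered by role and by the change without TNF. Without TNF 39 of 41 members lie above 0 and pass the test, and with TNF the mitotic genes spread from -0.35 (Tpx2) to 2.83 (Hmmr) while Ccnd1, Ccnd2 and Cdkn1a lie below 0, Ccnd1 without a call when scaled to total reads.

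With TNF most mitotic genes were again higher in Klf6-deleted cells, and the G1-S genes were mixed. Of the 23 G2 and mitosis genes 21 rose in Klf6-deleted cells and none fell, with a median log2 change over the 23 of 1.88, while 8 of the 15 G1-S genes rose, 1 fell and 6 did not pass the test, with a median of 0.37. Ccnd1, Ccnd2 and Cdkn1a fell. Over all 41 members 29 rose, against 26.5% of the 11717 genes tested, and 4 fell, against 30.8%, and the median of all genes was -0.01. Scaling to total reads instead of the tables' size factors moved the median of all genes tested by 0.33 with TNF and by 0.13 without it, and the share of called genes that were higher was 80.4% under it against 46.2% with TNF, and 68.0% against 48.5% without. Under that scaling 13 of the 15 G1-S genes rose and none fell (median 0.68), and the 41 members split into 34 risen and 2 fallen. Of the 41 members 14 lay below 1 CPM in at least 1 Lyz2cre library with TNF (Rrm2 and 13 mitotic genes) and so could not have passed the filter on low values (1 CPM in 3 libraries) without the Klf6-deleted group. All 14 of these rose, which the filter favours, and of the other 27 members 15 rose (8 of 10 mitotic genes among them), 4 fell and 8 did not pass. With no filter the counts were again 29 and 4. A rise of at least 2-fold past the test was made by 19 mitotic and 2 G1-S genes, against 8.13% of all genes, and a fall of that size by Ccnd2 and Cdkn1a, against 6.95%. All Klf6-deleted libraries lay above all Lyz2cre libraries for 29 members, as in 29.9% of genes tested, and below them for 3, as in 33.3%.

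Rrm2, at the head of the G1-S genes with TNF, had 62.6, 70.0 and 93.3 normalized counts in Klf6-deleted cells, against 18.9, 11.3 and 11.5 in Lyz2cre cells (log2 change 2.37, SE 0.289, adjusted p = 2.98e-06). E2f1, which was slightly lower without TNF, had 580.0, 645 and 571 normalized counts in Klf6-deleted cells, against 296, 397 and 375 in Lyz2cre cells (log2 change 0.76, SE 0.103, adjusted p = 1.06e-05). Cdt1 had 448, 506 and 482 normalized counts in Klf6-deleted cells, against 218, 208 and 234 in Lyz2cre cells (log2 change 1.12, SE 0.0938, adjusted p = 3.26e-08). In all 3 genes the Klf6-deleted libraries lay above the Lyz2cre ones. Mcm2 and Mcm7 rose by 0.90 and 0.90, Mcm3 by 0.50, Rrm1 by 0.29 and Pcna by 0.26. The other subunits of the same helicase did not pass as higher with the tables' scaling. Mcm6 had 731, 766 and 701 normalized counts in Klf6-deleted cells, against 874, 922 and 913 in Lyz2cre cells (log2 change -0.30, SE 0.0640, adjusted p = 7.60e-04), a fall that scaling to total reads turned to 0.025 (adjusted p = 0.739). Mcm4 had 413, 459.8 and 439 normalized counts in Klf6-deleted cells, against 465, 449 and 446 in Lyz2cre cells (log2 change -0.05, SE 0.0796, adjusted p = 0.595), and the same scaling gave a rise of 0.27 (adjusted p = 0.0061). Mcm5 did not pass (log2 change 0.19, SE 0.101, adjusted p = 0.123) and did with that scaling (0.51, adjusted p = 3.02e-04). Ccne1 (0.19, adjusted p = 0.623), Ccne2 (0.37, 0.227), Gmnn (0.20, 0.402) and Tyms (0.46, 0.094) were above 0 without passing limma's test, and with scaling to total reads Ccne2, Gmnn and Tyms did pass it. Tyms also passed in the fit over all 4 groups (limma, adjusted p = 0.028).

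Among the mitotic genes with TNF, Ccna2 had 74.7, 85.4 and 98.2 normalized counts in Klf6-deleted cells, against 12.9, 8.24 and 14.9 in Lyz2cre cells (log2 change 2.77, SE 0.284, adjusted p = 3.76e-07). Bub1 had 83.1, 80.0 and 108 normalized counts in Klf6-deleted cells, against 14.9, 10.3 and 14.9 in Lyz2cre cells (log2 change 2.67, SE 0.264, adjusted p = 2.48e-07). Birc5, which codes for survivin, had 68.2, 77.2 and 41.8 normalized counts in Klf6-deleted cells, against 14.9, 3.09 and 9.17 in Lyz2cre cells (log2 change 2.82, SE 0.439, adjusted p = 4.30e-05). The groups were wide apart in all 3 genes, and the Lyz2cre libraries held few reads of them. Hmmr, a spindle-associated protein gene, had the largest fitted rise of the 41 members with TNF (log2 change 2.83, SE 0.469, adjusted p = 7.95e-05), from 33, 73 and 48 reads in Klf6-deleted libraries and 6, 11 and 2 reads in Lyz2cre libraries. Top2a, with more reads, had 352, 347 and 397 normalized counts in Klf6-deleted cells, against 103, 118 and 104 in Lyz2cre cells (log2 change 1.74, SE 0.116, adjusted p = 1.96e-09). Ccnb1, Ccnb2 and Cdk1 rose by 2.69, 2.24 and 1.39, Foxm1 by 1.84, Plk1 by 1.99 and Aurkb by 1.32. Cdc20 and Ube2c rose by 2.04 and 2.33, and Cdca3 and Bub1b by 2.42 and 1.10. Kif11, Kif20a, Prc1 and Nusap1 rose by 1.81, 1.40, 2.40 and 1.88. Aurka (log2 change 0.62, SE 0.235, adjusted p = 0.033) and Cdca8 (log2 change 0.61, SE 0.187, adjusted p = 0.011) rose least and their groups overlapped. The limma call of Aurka was lost without any of Klf6-deleted libraries 1 and 2 or Lyz2cre libraries 1 and 3 (log2 change down to 0.44, adjusted p up to 0.176), and that of Cdca8 without Klf6-deleted library 2 or Lyz2cre library 1 (down to 0.48, adjusted p up to 0.054).

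With TNF 2 mitotic genes, Mki67 and Tpx2, did not pass the test. Mki67 had 553, 519.8 and 686 normalized counts in Klf6-deleted cells, against 674, 708 and 604 in Lyz2cre cells (log2 change -0.18, SE 0.0969, adjusted p = 0.119). Tpx2 had 151, 161 and 157 normalized counts in Klf6-deleted cells, against 253, 144 and 220.1 in Lyz2cre cells (log2 change -0.35, SE 0.168, adjusted p = 0.085). The genotypes overlapped in both genes. Without Klf6-deleted library 3 Mki67 passed limma's test as lower (log2 change -0.30, adjusted p = 0.0087), whereas scaling to total reads gave 0.14 with no call. Tpx2 passed it as lower without Lyz2cre library 2 (-0.59, adjusted p = 0.0012) and in the fit over all 4 groups (adjusted p = 0.044), and was -0.028 when scaled to total reads.

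The G1 regulators changed sides with TNF. Ccnd2 (ENSMUSG00000000184, chr6:127125162-127152193, minus strand, GRCm38), a D-type cyclin gene, had 66.3, 81.8 and 86.5 normalized counts in Klf6-deleted cells, against 382, 311 and 371 in Lyz2cre cells with TNF (log2 change -2.17, SE 0.139, adjusted p = 1.12e-09). Without TNF it had 713, 645 and 635 normalized counts in Klf6-deleted cells, against 119, 83.5 and 82.0 in Lyz2cre cells (log2 change 2.81, SE 0.127, adjusted p = 1.42e-12), the largest change of any member without TNF. The order of the genotypes was thus opposite in the 2 conditions, with no overlap in either. Cdkn1a (ENSMUSG00000023067, chr17:29090976-29100727, plus strand) had 4974, 5463 and 5114 normalized counts in Klf6-deleted cells, against 25436, 22309 and 24715 in Lyz2cre cells with TNF (log2 change -2.22, SE 0.0511, adjusted p = 2.67e-15). It had 2159, 2286 and 2303 normalized counts in Klf6-deleted cells, against 1127, 1144 and 1235 in Lyz2cre cells without TNF (log2 change 0.94, SE 0.0488, adjusted p = 9.96e-12). The genotypes again lay wide apart both times and in opposite orders. Ccnd1 (ENSMUSG00000070348, chr7:144929931-144939925, minus strand) had 155, 178 and 217 normalized counts in Klf6-deleted cells, against 275, 205 and 331 in Lyz2cre cells with TNF (log2 change -0.54, SE 0.162, adjusted p = 0.009). Without TNF it had 2052, 1959.9 and 1762 normalized counts in Klf6-deleted cells, against 692, 747 and 769 in Lyz2cre cells (log2 change 1.38, SE 0.0603, adjusted p = 8.98e-13). Its groups overlapped with TNF, and that call was lost with scaling to total reads (-0.22, adjusted p = 0.212) and without Klf6-deleted library 1 or Lyz2cre library 3 (log2 change up to -0.38, limma, adjusted p up to 0.068).

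**Figure D3:**
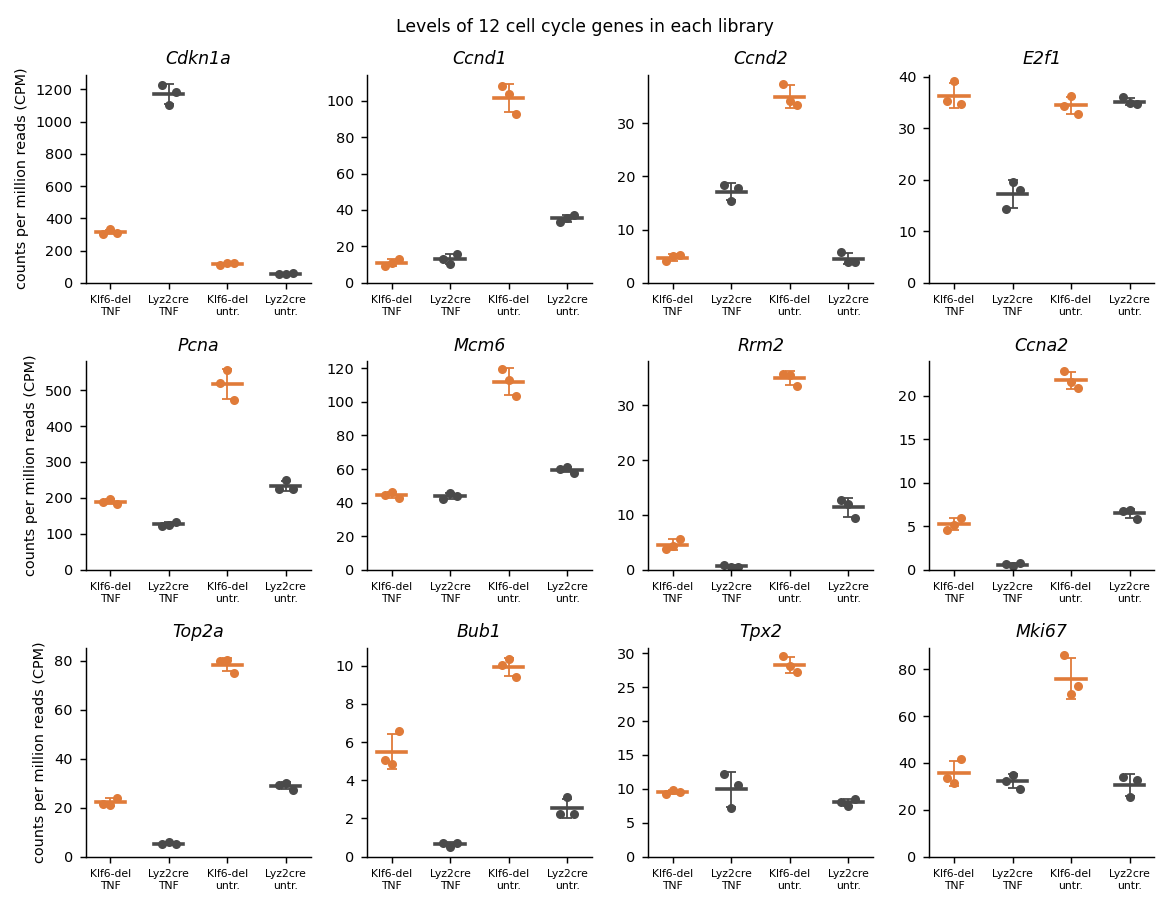
Points are libraries, lines and bars the mean and SD of 3 libraries, in CPM, for 12 members in Klf6-deleted and Lyz2cre cells with TNF and untreated. Cdkn1a stands at 1169.8 CPM in Lyz2cre cells with TNF and at 315 CPM in Klf6-deleted cells with TNF, and Ccna2, Rrm2, Top2a and Bub1 are highest in untreated Klf6-deleted cells and lowest in Lyz2cre cells with TNF.

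The difference between the genotype effects, with TNF minus without it, was tested by limma over the 4 groups for 13062 genes. Larger and smaller are meant by sign, so Cdkn1a, whose effect went from 0.94 without TNF to -2.22 with it, counts as smaller. Among the 41 members 15 had a larger effect with TNF, against 24.1% of genes tested, 11 a smaller one, against 24.9%, and 15 did not pass. Of the 23 mitotic genes 12 were larger and 2 smaller (median difference 0.62), of the 15 G1-S genes 3 were larger and 6 smaller (median -0.35), and all 3 G1 regulators were smaller, where the median over all genes was 0.011. The mitotic genes with a larger effect included Ccna2 at 1.16 (SE 0.271, adjusted p = 0.0015), Ccnb2 at 1.12 (SE 0.332, adjusted p = 0.009), Cdca3 at 1.11 (SE 0.352, adjusted p = 0.013) and Top2a at 0.43 (SE 0.114, adjusted p = 0.0039). The mitotic pair with a smaller effect was Tpx2 at -2.04 (SE 0.207, adjusted p = 9.01e-08) and Mki67 at -1.37 (SE 0.157, adjusted p = 4.79e-07). Of the G1-S genes E2f1 differed by 0.92 (SE 0.126, adjusted p = 5.01e-06) and Rrm2 by 0.88 (SE 0.274, adjusted p = 0.012) toward a larger effect. Toward a smaller one, Mcm6 differed by -1.08 (SE 0.0813, adjusted p = 1.15e-09), Mcm5 by -0.91 (SE 0.123, adjusted p = 4.00e-06), Pcna by -0.76 (SE 0.0801, adjusted p = 1.60e-07) and Mcm4 by -0.64 (SE 0.0947, adjusted p = 1.19e-05). Ccnd2 differed by -4.98 (SE 0.204, adjusted p = 9.26e-14), Cdkn1a by -3.16 (SE 0.0726, adjusted p = 2.39e-17) and Ccnd1 by -1.93 (SE 0.189, adjusted p = 5.33e-08).

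Several of these calls, at limma adjusted p of 0.018 (Ccnb1) to 0.043 (Cdc20) with all libraries, were lost when 1 library was left out. Of 12 libraries left out in turn, the limma call on the difference was lost without 9 for Cdc20 (0.50 to 0.80, adjusted p up to 0.103), kept only without Klf6-deleted TNF library 1, Lyz2cre TNF library 3 or untreated Lyz2cre library 2. It was lost without 8 for Nusap1 (0.58 to 0.89, adjusted p up to 0.095), kept without Klf6-deleted libraries 2 of both conditions, Lyz2cre TNF library 1 or untreated Lyz2cre library 3. For Birc5 it was lost without 7 (0.81 to 1.79, adjusted p up to 0.084), namely Klf6-deleted libraries 1 and 2 of both conditions, Lyz2cre libraries 2 of both conditions and untreated Lyz2cre library 3. For Ccne1 it was lost without 7 (-1.29 to -0.76, adjusted p up to 0.106), namely Klf6-deleted TNF library 1, all 3 untreated Klf6-deleted libraries, Lyz2cre TNF libraries 1 and 3 and untreated Lyz2cre library 2. Bub1 lost it without 6 (0.66 to 0.91, adjusted p up to 0.086), which were Klf6-deleted TNF library 3, all 3 untreated Klf6-deleted libraries and Lyz2cre libraries 2 of both conditions. Cdt1 lost it without 6 (0.22 to 0.30, adjusted p up to 0.088), which were Klf6-deleted libraries 2 and 3 of both conditions, Lyz2cre TNF library 2 and untreated Lyz2cre library 1. Prc1 lost it without Klf6-deleted TNF library 3 or untreated Lyz2cre library 1 (0.60 to 0.99, adjusted p up to 0.067) and Ccnb1 without Klf6-deleted TNF library 1 (0.70 to 1.43, adjusted p up to 0.055). Calls were gained for Foxm1 (without Klf6-deleted or Lyz2cre TNF library 1, adjusted p down to 0.011) and for Hmmr and Tyms (without Klf6-deleted TNF library 1 or Lyz2cre TNF library 2, down to 0.0053 and 0.021). The other calls on the difference, among them those of Ccnd1, Ccnd2, Cdkn1a, E2f1, Tpx2, Mki67, Mcm5 and Mcm6, held without any 1 library. Among other settings, Cdt1 lost its call in DESeq2 (adjusted p = 0.077) and edgeR (adjusted p = 0.059), and Rrm1 and Ccne1 lost theirs when scaled to total reads (limma, adjusted p = 0.209 and 0.069). With a pseudocount of 5 those of Birc5, Bub1 and Cdc20 were lost (limma, adjusted p = 0.056, 0.064 and 0.096), and that of Cdc20 also with no filter on low values (limma, adjusted p = 0.062). Calls were gained for Hmmr in DESeq2 (adjusted p = 0.04), for Hmmr and Foxm1 when scaled to total reads (limma, adjusted p = 0.041 and 0.02) and for Tyms with a pseudocount of 5 (limma, adjusted p = 0.041), where 12 members were larger and 12 smaller.

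**Figure D4:**
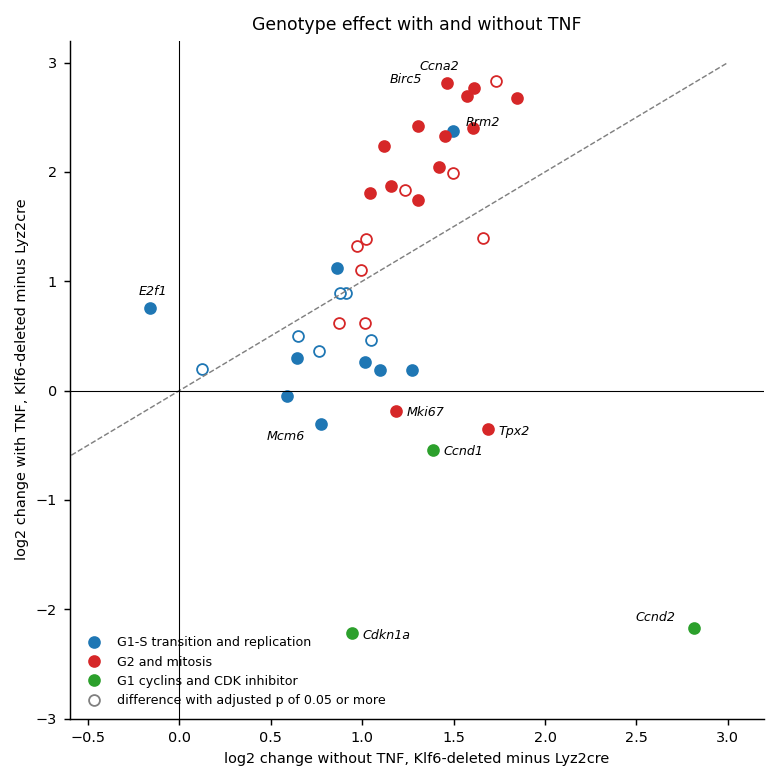
Each point is a member, placed by its log2 change (Klf6-deleted minus Lyz2cre) without TNF on the horizontal axis and with TNF on the vertical axis, coloured by role, and filled where the difference of both changes passed limma's test. Points above the dashed line of equal change, mostly mitotic genes, changed more with TNF, and Ccnd2, Cdkn1a, Ccnd1, Tpx2, Mki67, Mcm4 and Mcm6 lie above 0 on the horizontal and below 0 on the vertical axis, of which Mki67, Mcm4 and Mcm6 turn above 0 when scaled to total reads.

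Summing each role's members within a library set the mitotic against the S-phase genes. With TNF the ratio of summed G2 and mitosis values to summed G1-S values was 0.353, 0.337 and 0.375 in the Klf6-deleted libraries, against 0.251, 0.241 and 0.220 in the Lyz2cre libraries. Without TNF it was 0.413, 0.393 and 0.427 in Klf6-deleted libraries, against 0.306, 0.277 and 0.314 in Lyz2cre libraries. In both conditions every Klf6-deleted library had the higher ratio, and since both sums come from 1 library no scaling alters it. The summed G1-S level was 474 ± 12.5 CPM in Klf6-deleted and 304 ± 8.96 CPM in Lyz2cre cells with TNF (SD), and 1195 ± 69.6 CPM in Klf6-deleted and 607 ± 15.2 CPM in Lyz2cre cells without it. The summed G2 and mitosis level was 168 ± 6.05 CPM in Klf6-deleted and 72.1 ± 3.66 CPM in Lyz2cre cells with TNF, and 491 ± 16.5 CPM in Klf6-deleted and 181 ± 8.98 CPM in Lyz2cre cells without it. Abundant members weigh most in these sums, Pcna above all in the G1-S sum. In Lyz2cre cells with TNF Mki67 (32.1 CPM) and Tpx2 (9.94 CPM) made up much of the G2 and mitosis sum of 72.1 CPM. Neither gene passed the test between genotypes with TNF, so the ratio with TNF understates how the other mitotic genes differed. No test was made on the sums because the members were chosen with results of these data known.

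**Figure D5:**
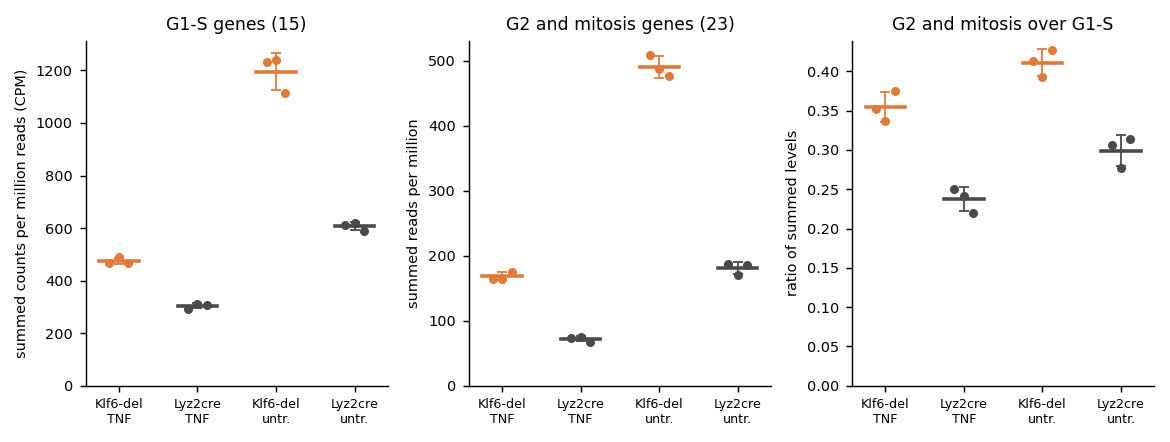
Summed CPM of the 15 G1-S members, of the 23 G2 and mitosis members, and the ratio of the second sum to the first, for each library (points) with the mean and SD of 3 libraries. The ratio is 0.355 ± 0.0195 in Klf6-deleted and 0.237 ± 0.0155 in Lyz2cre cells with TNF, and 0.411 ± 0.0173 in Klf6-deleted and 0.299 ± 0.0199 in Lyz2cre cells without it.

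The tables were normalized separately, so levels with and without TNF are set side by side in CPM, with no test. In both genotypes the members were mostly lower with TNF. Markers of other cells differed between the conditions as well. The stromal list took 0.421 to 0.448% of values without TNF and 0.0412 to 0.0485% with it in Klf6-deleted libraries. The endothelial list went the other way in Lyz2cre libraries, at 0.0138 to 0.0149% without TNF and 0.0205 to 0.0230% with it. The part of such cells, or of the cultures, in the lower levels was not tested. The median member of the G2 and mitosis genes was 3.53-fold lower with TNF in Klf6-deleted cells and 5.50-fold lower in Lyz2cre cells, and of the G1-S genes 2.74-fold lower in Klf6-deleted and 2.31-fold lower in Lyz2cre cells. The median over all genes with a mean of at least 1 CPM was 1.06-fold lower in Klf6-deleted and 1.23-fold lower in Lyz2cre cells. Every TNF library lay below every untreated one for 23 of the 23 mitotic genes in Klf6-deleted cells and 20 of 23 in Lyz2cre cells, a pattern that 41.8% of all genes in Klf6-deleted and 54.6% in Lyz2cre cells also had. The 3 exceptions in Lyz2cre cells were Mki67, Tpx2 and Cdca8. Mki67 stood at 32.1 ± 3.04 CPM with TNF and 30.7 ± 4.69 CPM without it in Lyz2cre cells (SD), and at 35.7 ± 5.34 CPM with TNF and 76.1 ± 8.77 CPM without it in Klf6-deleted cells. Tpx2 stood at 9.94 ± 2.58 CPM with TNF and 8.00 ± 0.497 CPM without it in Lyz2cre cells, and at 9.52 ± 0.291 CPM with TNF and 28.3 ± 1.21 CPM without it in Klf6-deleted cells. For both genes the untreated Klf6-deleted cells were the high group and the other 3 groups were near each other. Ccna2 shows the common pattern, at 0.581 ± 0.158 CPM with TNF and 6.49 ± 0.551 CPM without it in Lyz2cre cells, and at 5.24 ± 0.712 CPM with TNF and 21.8 ± 0.982 CPM without it in Klf6-deleted cells. In Klf6-deleted cells with TNF it was thus near its level in untreated Lyz2cre cells.

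E2f1 was the only G1-S gene whose TNF and untreated libraries overlapped in Klf6-deleted cells. It stood at 36.4 ± 2.47 CPM with TNF and 34.5 ± 1.67 CPM without it in Klf6-deleted cells, and at 17.3 ± 2.73 CPM with TNF and 35.2 ± 0.703 CPM without it in Lyz2cre cells, where all TNF libraries were lower. Cdkn1a stood at 315 ± 15.3 CPM with TNF and 119 ± 4.46 CPM without it in Klf6-deleted cells, and at 1169.8 ± 63.3 CPM with TNF and 56.2 ± 2.88 CPM without it in Lyz2cre cells. It was higher with TNF in every library of both genotypes, 2.66-fold in Klf6-deleted and 20.8-fold in Lyz2cre cells. Ccnd2 went opposite ways, at 4.76 ± 0.640 CPM with TNF and 35.0 ± 2.15 CPM without it in Klf6-deleted cells, and at 17.2 ± 1.62 CPM with TNF and 4.57 ± 1.04 CPM without it in Lyz2cre cells. Ccnd1 was lower with TNF in both, at 11.1 ± 1.89 CPM with TNF and 102 ± 7.85 CPM without it in Klf6-deleted cells, and at 13.1 ± 2.88 CPM with TNF and 35.4 ± 1.84 CPM without it in Lyz2cre cells.

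Per kilobase of exon, Pcna and Cdkn1a stood above all other members. Length was the union of all annotated exons of a gene, 6089 bases for Tyms and 2662 for Ccne1. With TNF Cdkn1a was the highest, at 88.7 ± 4.29 CPM per kb in Klf6-deleted and 329 ± 17.8 in Lyz2cre cells, with Pcna next at 79.0 ± 2.71 in Klf6-deleted and 52.7 ± 2.50 in Lyz2cre cells. Without TNF Pcna was the highest, at 215 ± 17.3 CPM per kb in Klf6-deleted and 97.1 ± 6.02 in Lyz2cre cells, with Cdkn1a next at 33.4 ± 1.26 in Klf6-deleted and 15.8 ± 0.812 in Lyz2cre cells. In untreated Klf6-deleted cells Cdt1 (26.5 ± 0.954), Mcm6 (24.0 ± 1.73) and Mcm3 (23.1 ± 1.12) followed within each other's spread or near it. The lowest members were Tyms in untreated Klf6-deleted cells (1.68 ± 0.140 CPM per kb), Ccnd2 in untreated Lyz2cre cells (0.486 ± 0.110), Ccnd2 in Klf6-deleted cells with TNF (0.505 ± 0.0680) and Hmmr in Lyz2cre cells with TNF (0.0587 ± 0.0417). In CPM Tyms (10.2) stood above Ccne1 (6.21) in untreated Klf6-deleted cells, so the order depends on the length used.

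Genes of the same pathway outside the 41 members were read from longer lists. Of 52 further mitosis genes 48 rose and 3 fell without TNF (median log2 change 1.16), and with TNF 40 rose and 2 fell of the 43 that passed the filter on low values (median 1.32). Of 41 further replication genes 32 rose and 1 fell without TNF (median 0.62), and 18 rose and 1 fell of 38 with TNF (median 0.32). These stand beside 27.6% risen and 29.3% fallen of all genes without TNF, and 26.5% and 30.8% with it. The kinesin gene Kif2c, a microtubule depolymerase of mitosis, averaged 151 ± 8.17 in Klf6-deleted cells and 40.1 ± 8.08 in Lyz2cre cells without TNF (SD, log2 change 1.90, adjusted p = 5.04e-08). Ckap2, Ckap2l and Kif4 rose by 2.00, 1.94 and 1.84. With TNF the largest rises were in the kinetochore gene Cenpf (log2 change 3.48), Kif18b (2.75), the cytokinesis gene Anln (2.71) and the centrosomal kinase gene Nek2 (2.62), each with a mean below 1 CPM in Lyz2cre cells. Of the 43 mitosis genes tested with TNF, 23 lay below 1 CPM in at least 1 Lyz2cre library, so that they passed the filter only with the Klf6-deleted group, and all 23 are among the 40 that rose. Of the 38 replication genes 6 did so, and 5 of them are among the 18 that rose. Without TNF 6 of the 52 mitosis genes and 1 of the 41 replication genes did so, and all of these rose. Clspn, a replication checkpoint mediator, averaged 43.9 ± 11.0 in Klf6-deleted cells and 5.78 ± 3.61 in Lyz2cre cells with TNF (log2 change 2.87, adjusted p = 5.34e-05) and 259.8 ± 7.98 in Klf6-deleted cells and 88.4 ± 6.79 in Lyz2cre cells without it (log2 change 1.55, adjusted p = 3.62e-09). Chaf1b, of a chromatin assembly factor, and Exo1, a repair exonuclease gene, rose with TNF by 1.68 and 1.40. The maintenance methylation factor gene Uhrf1 and the licensing gene Cdc6 rose without TNF by 1.52 and 1.35.

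The genes that fell in these lists were named after their values were seen. Changes in the further lists, here and below, are given with the tables' scaling only. Scaling to total reads moved the median of all genes by 0.33 with TNF and 0.13 without it, so falls near that size may not hold under it. Pttg1, the gene for securin, which holds back separase, fell in both conditions, at 246 ± 20.7 in Klf6-deleted cells and 628 ± 66.2 in Lyz2cre cells with TNF (log2 change -1.35, adjusted p = 5.82e-09) and 262 ± 9.11 in Klf6-deleted cells and 351 ± 21.3 in Lyz2cre cells without it (log2 change -0.42, adjusted p = 5.06e-04). Espl1, the gene for separase itself, fell with TNF by 0.56, and the centromeric histone gene Cenpa and the phosphatase gene Cdc25b fell without TNF by 0.83 and 0.21 on the log2 scale. Among replication genes Rfc3 fell with TNF by 0.48 and Gins4 without it by 0.20.

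Among upstream regulators both directions were seen. Of 31 further genes for D-cyclin kinases, pocket proteins, E2F factors and CDK inhibitors, 9 rose and 6 fell of 29 tested without TNF (median 0.07), and 10 rose and 5 fell of 28 with TNF (median 0.05). Over all genes 27.6% rose and 29.3% fell without TNF, and 26.5% rose and 30.8% fell with it. The inhibitor gene Cdkn1c, coding for p57, averaged 198 ± 23.7 in Klf6-deleted cells and 640.0 ± 22.0 in Lyz2cre cells without TNF (log2 change -1.70, adjusted p = 2.20e-11). Cdkn1b, coding for p27, averaged 925 ± 25.2 in Klf6-deleted cells and 1425 ± 45.9 in Lyz2cre cells (log2 change -0.62, adjusted p = 4.96e-09). The retinoblastoma gene Rb1 averaged 1148 ± 20.1 in Klf6-deleted cells and 1657 ± 89.3 in Lyz2cre cells (log2 change -0.53, adjusted p = 4.49e-08). Rbl2, E2f5 and Tfdp2 also fell without TNF (log2 changes -0.23, -0.47 and -0.39), and E2f3 and Tfdp1 fell with TNF (-0.32 and -0.19). All of these from Cdkn1b on were named after their values were seen. E2f2, an activating E2F gene, averaged 129 ± 8.61 in Klf6-deleted cells and 32.9 ± 4.54 in Lyz2cre cells with TNF (log2 change 1.94, adjusted p = 2.29e-07) and 364 ± 9.86 in Klf6-deleted cells and 193 ± 13.2 in Lyz2cre cells without it (log2 change 0.91, adjusted p = 1.31e-07). E2f7, which codes for a repressing E2F, rose without TNF by 1.25, and E2f8 fell with TNF by 1.34 on the log2 scale. Rbl1, the pocket protein gene for p107, averaged 379.7 ± 21.5 in Klf6-deleted cells and 1328 ± 127 in Lyz2cre cells with TNF (log2 change -1.80, adjusted p = 8.16e-12). Myc, a growth regulator, averaged 111 ± 16.4 in Klf6-deleted cells and 204 ± 29.2 in Lyz2cre cells with TNF (log2 change -0.88, adjusted p = 1.26e-04) and 362 ± 18.6 in Klf6-deleted cells and 199.5 ± 8.99 in Lyz2cre cells without it (log2 change 0.86, adjusted p = 2.62e-07), an order of the genotypes that was opposite in the 2 conditions.

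Cdkn1a is also a target of p53, and 25 other genes of the p53 pathway, most of them its targets and the gene for p53 among them, were read beside it. Without TNF 14 rose and 5 fell of 24 tested (median 0.38), and with TNF 11 rose and 4 fell of 22 (median 0.24), beside 27.6% risen and 29.3% fallen of all genes without TNF and 26.5% and 30.8% with it. Phlda3, an inhibitor of AKT, averaged 256 ± 18.8 in Klf6-deleted cells and 27.9 ± 7.60 in Lyz2cre cells with TNF (log2 change 3.18, adjusted p = 1.02e-09) and 556 ± 21.0 in Klf6-deleted cells and 77.6 ± 3.27 in Lyz2cre cells without it (log2 change 2.83, adjusted p = 7.96e-14). The stress cytokine gene Gdf15 averaged 231 ± 15.4 in Klf6-deleted cells and 20.6 ± 8.47 in Lyz2cre cells with TNF (log2 change 3.52, adjusted p = 8.67e-09) and 755 ± 65.6 in Klf6-deleted cells and 241 ± 27.0 in Lyz2cre cells without it (log2 change 1.65, adjusted p = 2.43e-11). Plk2 and Trp53inp1 rose with TNF by 1.48 and 1.40, and Ddit4l and Eda2r without TNF by 3.56 and 2.02. Ddit4l and Eda2r averaged below 1 CPM in untreated Lyz2cre cells and so passed the filter on low values only with the Klf6-deleted group. With TNF 2 of the 11 risen genes also lay below 1 CPM in at least 1 Lyz2cre library. Mdm2, the gene for the ligase that degrades p53, fell with TNF, at 8262 ± 139 in Klf6-deleted cells and 12818 ± 224 in Lyz2cre cells (log2 change -0.63, adjusted p = 5.21e-10), as did Gadd45a, Fas and Aen, by 0.39, 0.26 and 0.35 on the log2 scale. Without TNF Sesn1 fell, at 1858 ± 53.2 in Klf6-deleted cells and 5117 ± 267 in Lyz2cre cells (log2 change -1.46, adjusted p = 4.61e-15), as did Btg2, Dcxr, Gadd45a and Ei24, by 0.89, 0.51, 0.25 and 0.16 on the log2 scale. The genes that fell in this list were named after their values were seen, and the smaller of these falls may depend on the scaling.

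Exons of 12 members overlap those of another listed gene in GENCODE (GRCm38). The pairs are Ccna2 with Exosc9, Ccnd1 with LTO1, Ccnd2 with 9330179D12Rik, Ccne2 with Ints8, Cdc20 with Elovl1, Cdca8 with 9930104L06Rik, Cdkn1a with AC167363.2, Foxm1 with Tex52, Kif20a with Cdc23, Mcm7 with Cops6 and Ap4m1, Nusap1 with Oip5 and Prc1 with Rccd1. The overlap is longest for Kif20a, at 1271 bases. The kit marks strand, but whether the counting used it is not given in the sources used here, so levels of these 12 genes are uncertain to that extent. Foxm1 and Tex52 lie on the same strand, where strand would not tell their reads apart, and Tex52 reached at most 1.62 normalized counts in any library. Pcna has a processed pseudogene, and how reads common to both were counted is not given either.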

How the data were processed

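Total RNA of bone marrow-derived macrophages was isolated with the High Pure RNA kit and made into libraries with TruSeq Stranded Total RNA after Ribo-Zero Gold removal of ribosomal RNA, per the labels' protocols. Per the submitters' processing notes, Cufflinks, GRCm39 and mm10 were involved, in roles that are not given. The authors deposited normalized signal values in 2 tables (untreated and TNF), by Ensembl identifier per the file headers. Every deposited signal value was a whole read count divided by 1 size factor per library (largest deviation 5.2e-05 reads, tolerance 0.001), set within each table, so reads and CPM were recovered. All value columns were used. Libraries held 16.9 to 23.4 M reads on 17143 to 20169 genes. Symbols were found for 22867 of 22896 and 21411 of 21437 identifiers.

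Within a table the genotypes were compared by limma (3.58.1, R 4.3.3) with its trend option, on log2(value + 1) of all genes that reached 1 CPM in 3 or more libraries, two-sided, with Benjamini-Hochberg adjustment over all genes tested and calls at an adjusted p below 0.05. The difference of the genotype effects was a limma contrast over the 4 groups. Alternatives were edgeR 4.0.16, DESeq2 1.42.0, TMM scaling, scaling to total reads, and other filters, thresholds and pseudocounts. Further ones were a fit over all groups, each library left out and the replicate number within each condition as a block. Tables and figures were made with Python 3.11.15, pandas 2.3.3 and matplotlib 3.10.9. Lengths came from GENCODE vM21 and promoter windows from RefSeq (GRCm38.p6). All 41 members are named, with up to 4 genes of each further list by size of change, and genes outside this rule are marked as such. Some genes that the rule names are not reported here. The members and lists were chosen with earlier results of these data known. Reads carried no molecular identifiers, so depth gives counting error only.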

Additional observations from a re-analysis of the deposited data

Results flagged for a closer look

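For 26 of the 41 members the genotype effect differed with and without TNF by limma's test of the difference itself, over all 12 libraries (15 larger with TNF, against 24.1% of all genes tested, and 11 smaller, against 24.9%). Values are the log2 change with TNF minus the log2 change without it, each Klf6-deleted minus Lyz2cre, and larger or smaller is meant by sign. Among G2 and mitosis genes the effect was larger with TNF for Ccna2 (1.16), Ccnb1 (1.12), Ccnb2 (1.12), Cdc20 (0.62), Ube2c (0.87), Birc5 (1.35), Bub1 (0.83), Kif11 (0.77), Prc1 (0.80), Nusap1 (0.72), Top2a (0.43) and Cdca3 (1.11). It was smaller for Tpx2 (-2.04) and Mki67 (-1.37). Among G1-S genes it was larger with TNF for E2f1 (0.92), Cdt1 (0.26) and Rrm2 (0.88), and smaller for Ccne1 (-1.08), Mcm4 (-0.64), Mcm5 (-0.91), Mcm6 (-1.08), Pcna (-0.76) and Rrm1 (-0.35). Among the G1 regulators it was smaller for Ccnd1 (-1.93), Ccnd2 (-4.98) and Cdkn1a (-3.16). These differences are relative to the tables' own size factors. Groups of 3 libraries are too small for the test of a single outlying value, and the calls that were lost with 1 library left out are given with the results.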

How the results depend on the processing

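Where no value shows it, the cause of a change with the setting was not tested. Scaling to total reads moved the median change of all genes by 0.13 without TNF, 0.33 with TNF and 0.19 for the difference, and for the difference 69.1% of calls were larger with TNF under it, against 49.2% with the tables' scaling. Under it the G1-S and G2 and mitosis medians were 0.68 and 2.20 with TNF and 0.99 and 1.44 without it, 13 G1-S members rose and 2 members fell with TNF, and 0 fell without it. With TNF it turned Mcm4 to 0.27, Mcm6 to 0.025 and Mki67 to 0.14, and for the difference Mcm2 to 0.18 and Mcm3 to 0.040. The difference of Mcm7 was -0.014 in DESeq2 and -0.021 in edgeR. Without TNF no member fell (0) in DESeq2 or in the fit over 4 groups. The mitotic median with TNF was 1.91 in edgeR, 1.81 over genes with a mean of at least 2 CPM and 1.72 with a pseudocount of 5. With a 2-fold minimum 5 G1-S members rose and 0 members fell without TNF, 2 G1-S members rose and 2 members fell with TNF, and for the difference 5 members were larger (5 mitotic, 0 G1-S) and 7 smaller.

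With each library left out, 0 to 1 members fell without TNF, the medians there were 0.81 to 0.89 (G1-S) and 1.28 to 1.36 (G2 and mitosis), and with TNF they were 0.30 to 0.48 and 1.75 to 2.04. For the difference 10 to 15 members were larger and 10 to 12 smaller, 8 to 12 of the larger ones mitotic. Values that crossed 0, none of them called, were the change of Ccne1 (-0.016 to 0.51) with TNF and the differences of Aurka (-0.43 to 0.0071), Aurkb (-0.059 to 0.65), Gmnn (-0.038 to 0.22), Mcm2 (-0.10 to 0.088) and Mcm7 (-0.063 to 0.068). Replicate numbers recur between groups. Same-numbered libraries of the 2 genotypes deviated from their group means with correlations of 0.152, -0.0378 and 0.158 without TNF and -0.0209, -0.0123 and -0.0295 with it, so they were not treated as pairs. With the replicate number within each condition as a block, same-numbered libraries of the 2 genotypes were tied. The counts were then 39 higher and 1 lower without TNF, and 29 and 4 with TNF. For the difference 16 were larger and 11 smaller, Hmmr being gained. A tie between untreated and TNF libraries of the same genotype was neither checked nor fitted. Depth limits the mitotic genes in Lyz2cre cells with TNF, 11 of which averaged below 1 CPM.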
